A study of Mus musculus with 10 samples.

Results

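The Dlx homeobox genes of the first pharyngeal arch were examined in mouse mandibular prominences (MNPs), the paired swellings that form the lower jaw. The 6 members, Dlx1 to Dlx6, were taken by symbol from 33641 gene symbols listed, and all 6 passed the filter on low counts that left 17477 genes for testing. Polyadenylated RNA of whole MNPs of CD1 embryos at embryonic day 10.5 (E10.5) was sequenced in 3 genotypes. Wild-type (WT) embryos gave libraries WT 3 and WT 4, Hand2 f/f; Wnt1-Cre+ embryos (Hand2 cKO) gave 3 libraries, and embryos with floxed Gli2 (Gli2 f/f) and floxed Gli3 (Gli3 f/f) that carried Wnt1-Cre+ (Gli2/3 cKO) gave 1 library, which has no replicate. Another 4 samples were not analysed here. Wnt1-Cre recombines floxed alleles in neural crest cells and their descendants, so epithelium, endothelium, blood and muscle precursors in these MNPs kept Hand2, Gli2 and Gli3. The sources used here do not say whether a library came from 1 embryo or a pool, so p-values measure the spread between these libraries, which may in part be technical. In whole tissue, fewer cells of a type cannot be told apart from less RNA per cell.

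Dlx proteins are homeodomain transcription factors, and their genes lie in the genome as bigene pairs that are transcribed towards each other and share enhancers. In the neural crest of the arch they are expressed in nested domains along the proximodistal axis. Dlx1 and Dlx2 are expressed in both the upper and the lower jaw part, Dlx5 and Dlx6 in the lower jaw part, and Dlx3 and Dlx4 towards the distal end. Endothelin-1 from the epithelium signals through its receptor to switch on Dlx5 and Dlx6, which in turn activate lower-jaw genes that include Hand2. Loss of Dlx5 and Dlx6 turns the lower jaw into a mirror image of the upper jaw.

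In the GENCODE M21 annotation of mm10, the Dlx1/2 pair lay on chromosome 2, with Dlx1 from 71528113 to 71533981 on the plus strand and Dlx2 from 71543408 to 71546754 on the minus strand. Dlx3 (95120119 to 95125296, plus strand) and Dlx4 (95140447 to 95146263, minus strand) lay on chromosome 11. Dlx6 (6863334 to 6868568, plus strand) and Dlx5 (6877805 to 6882085, minus strand) lay on chromosome 6. The gap between the genes of a pair was 9426 bases for Dlx1/2, 15150 for Dlx3/4 and 9236 for Dlx5/6. Each pair was therefore convergent, with the 3′ ends of its genes facing each other.

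The homeobox, the stretch that encodes the DNA-binding homeodomain, is what the members share and what could make their reads hard to separate. It is shown from the mm10 genome for the longest protein-coding transcript of each gene, 180 bases that encode 60 residues, with capitals at the bases identical in all 6 genes. In every member it was split between exons 2 and 3 of 3, so each genomic span given includes an intron. The spans were chr2:71531025-71532311 for Dlx1, chr2:71544877-71545515 for Dlx2, chr11:95121767-95123456 for Dlx3, chr11:95141422-95141920 for Dlx4, chr6:6878441-6879657 for Dlx5 and chr6:6865140-6867088 for Dlx6.
Dlx1: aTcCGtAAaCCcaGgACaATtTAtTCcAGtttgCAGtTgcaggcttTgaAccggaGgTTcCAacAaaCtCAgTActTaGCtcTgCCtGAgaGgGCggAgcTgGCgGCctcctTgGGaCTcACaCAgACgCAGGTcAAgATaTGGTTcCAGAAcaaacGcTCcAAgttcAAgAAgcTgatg
Dlx2: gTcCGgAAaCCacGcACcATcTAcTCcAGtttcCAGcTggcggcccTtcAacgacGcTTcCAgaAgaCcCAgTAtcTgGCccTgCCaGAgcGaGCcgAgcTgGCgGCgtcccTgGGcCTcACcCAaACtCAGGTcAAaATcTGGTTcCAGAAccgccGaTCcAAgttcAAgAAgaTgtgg
Dlx3: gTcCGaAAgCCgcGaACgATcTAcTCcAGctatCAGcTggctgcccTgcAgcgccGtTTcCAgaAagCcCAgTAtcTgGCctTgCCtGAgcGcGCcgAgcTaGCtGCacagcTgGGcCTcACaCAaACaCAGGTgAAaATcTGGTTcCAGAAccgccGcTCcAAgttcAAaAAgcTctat
Dlx4: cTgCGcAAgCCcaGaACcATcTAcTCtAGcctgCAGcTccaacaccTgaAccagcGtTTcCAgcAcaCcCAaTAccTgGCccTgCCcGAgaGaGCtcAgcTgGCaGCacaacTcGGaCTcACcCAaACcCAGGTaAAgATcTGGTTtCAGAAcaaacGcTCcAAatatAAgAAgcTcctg
Dlx5: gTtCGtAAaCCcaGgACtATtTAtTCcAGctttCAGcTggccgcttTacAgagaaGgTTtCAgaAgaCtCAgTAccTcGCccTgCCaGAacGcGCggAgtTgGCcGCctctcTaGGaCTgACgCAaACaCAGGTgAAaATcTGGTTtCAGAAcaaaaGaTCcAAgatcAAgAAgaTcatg
Dlx6: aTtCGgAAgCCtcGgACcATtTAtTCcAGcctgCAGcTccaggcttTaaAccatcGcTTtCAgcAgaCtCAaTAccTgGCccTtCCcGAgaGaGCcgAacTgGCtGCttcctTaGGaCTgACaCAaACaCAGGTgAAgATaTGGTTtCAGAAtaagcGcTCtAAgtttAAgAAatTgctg

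Of these bases 92 of 180 (51.1%) were identical in all 6 genes, and 46 of the 60 encoded residues were. The residues did not pair by locus. The closest homeodomains were those of Dlx1 and Dlx6, with 96.7% of residues identical, followed by Dlx2 and Dlx5 with 93.3% and Dlx2 and Dlx3 with 91.7%. Between the genes of a bigene pair the identity was 86.7% for Dlx1/2, 80.0% for Dlx3/4 and 85.0% for Dlx5/6. At the level of bases the members had diverged further, and over the 15 possible combinations of members, the longest run of bases shared by whole transcripts (either strand) was 36, between Dlx1 and Dlx6.

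The targeted genes and the libraries were checked first. Hand2, a basic helix-loop-helix factor of the distal arch, ranged from 13.4 to 25.4 CPM in Hand2 cKO and from 174 to 209 CPM in WT, and stood at 144 CPM in Gli2/3 cKO. CPM are estimated counts relative to library size, with sizes adjusted by the TMM method of edgeR. Gli2 and Gli3, the zinc-finger factors of the Hedgehog pathway, were 58.3 and 80.1 CPM in Gli2/3 cKO and at least 80.2 and 114 CPM in every other library. Depth ran from 21420034 estimated counts in WT 4 to 53326524 in Hand2 cKO 1. Neural crest mesenchyme markers (6 of 6 with a count in every library) summed to 1076 CPM in WT 4 and to between 1288 and 1405 CPM in the others, and epithelial markers (10 of 10) summed to between 379 and 439 CPM. Erythroid markers (7 of 7) summed to 9796 CPM in WT 4 and 2562 CPM in WT 3, with 7988 CPM in Hand2 cKO 2 and 3360 to 3770 CPM elsewhere. Markers of the forebrain, another of the embryonic tissues known for Dlx expression, summed to at most 2.52 CPM over 9 genes, with Gsx2 at 0 in all libraries. Hox markers of the second arch summed to at most 5.28 CPM over 3 genes. Hand2 cKO 2 stood apart by transcript length, with log2 CPM relative to the mean of the libraries changing by -0.22 per doubling of length, against slopes from -0.031 to 0.096 in the others.

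All 6 members were expressed in every library. Ordered by TPM, in which counts are divided by transcript length and library size, the mean WT level was 143 ± 53.4 for Dlx5, 109 ± 26.7 for Dlx6, 99.4 ± 45.9 for Dlx1, 65.9 ± 19.98 for Dlx2, 45.2 ± 21.4 for Dlx3 and 6.03 ± 3.40 for Dlx4 (SD, n = 2). Only Dlx3 and Dlx4 were separated beyond the spread of the WT libraries among neighbours in this order. Within libraries the order held more closely. Dlx5 was above Dlx6, Dlx1 above Dlx2, Dlx2 above Dlx3 and Dlx3 above Dlx4 in 6 of 6 libraries, whereas Dlx6 was above Dlx1 in 2 of 6. Dlx4 was the weakest member throughout, 6.96 to 8.30 times lower per length than its partner Dlx3. By CPM, with no division by length, the WT mean of Dlx6 was 57.1, below those of Dlx1 (107) and Dlx2 (73.4). In WT 3, the Dlx6 transcripts of 605 and 383 bases held 58.3 and 14.5 of its 128 TPM, so its place per length rests on how reads were divided between transcripts.

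The 6 members were each lowest in the same library, WT 4. Dlx1, which is known for roles in the upper jaw together with Dlx2, had 138 CPM in WT 3 and 76.3 CPM in WT 4. It had 135, 130.0 and 126 CPM in Hand2 cKO 1, 2 and 3 and 161 CPM in Gli2/3 cKO. All 3 Hand2 cKO libraries thus lay between the WT libraries, and the Gli2/3 cKO library lay above every other. Dlx2, which is needed for proximal first arch derivatives, had 85.4 and 61.4 CPM in WT 3 and WT 4. The Hand2 cKO libraries had 89.5, 108 and 94.8 CPM, and Gli2/3 cKO had 105 CPM. For Dlx2 the Hand2 cKO libraries lay above both WT libraries, as they did for 15.3% of all genes tested, though Hand2 cKO 1 was only slightly above WT 3. The Gli2/3 cKO library also lay above both, as it did for 36.5% of genes.

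Dlx3, a gene of the distal arch that also acts in epidermis, placenta and teeth, had 74.0 and 40.0 CPM in WT. Its Hand2 cKO libraries had 80.9, 80.2 and 69.0 CPM, on both sides of WT 3, and the Gli2/3 cKO library had 84.7 CPM. Dlx4, its partner, was also lowest in WT 4, followed by Hand2 cKO 3 and WT 3, at a much lower level. It had 7.56 and 3.67 CPM in WT, from 388 and 83 estimated counts. In Hand2 cKO it had 7.89, 8.53 and 7.22 CPM, and in Gli2/3 cKO 7.96 CPM. With 83 counts, the 95% Poisson interval for Dlx4 in WT 4 ran from 2.92 to 4.55 CPM, below those of all other libraries (the interval covers counting error only).

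Dlx5 and Dlx6 are the members required for lower-jaw identity. Dlx5 had 120 and 75.7 CPM in WT, 127, 153 and 122 CPM across Hand2 cKO, and 131 CPM for Gli2/3 cKO. The Hand2 cKO libraries lay above both WT libraries for Dlx5 (15.3% of all genes tested did), by little in the case of Hand2 cKO 3. The Gli2/3 cKO library did as well (36.5% of genes). Dlx6 had 64.1 and 50.04 CPM in WT, 64.5, 104 and 59.5 CPM across Hand2 cKO, and 63.8 CPM for Gli2/3 cKO. Apart from Hand2 cKO 2, which was high, and WT 4, which was low, the libraries of all 3 genotypes lay between 59.5 and 64.5 CPM for Dlx6.

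**Figure D1:**
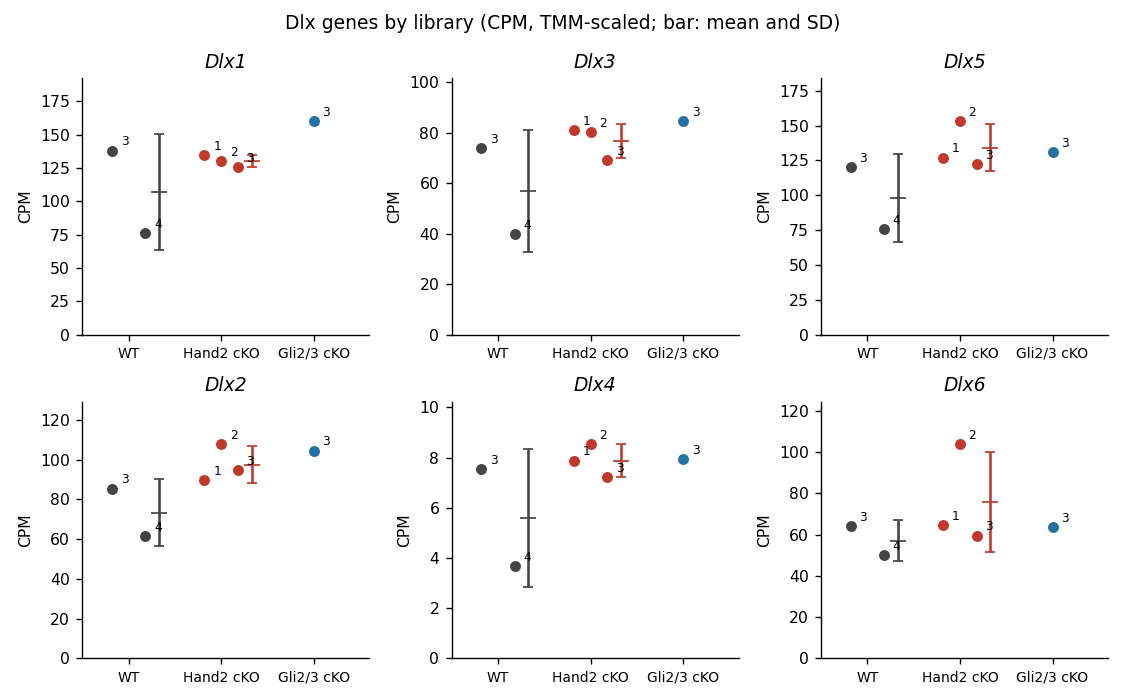
CPM (linear axes from 0) of the 6 Dlx genes across libraries. Numbers beside points give the replicate, and horizontal ticks with whiskers show mean ± SD where a group has several libraries (n = 2 for WT, n = 3 for Hand2 cKO). WT 4 is the lowest point in all 6 panels, at 76.3 CPM for Dlx1 and 50.04 CPM for Dlx6.

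The distance between the WT libraries was large for these genes. WT 3 was above WT 4 by 1.81-fold for Dlx1, 1.39-fold for Dlx2, 1.85-fold for Dlx3, 2.06-fold for Dlx4, 1.59-fold for Dlx5 and 1.28-fold for Dlx6. Over all genes tested the median log2 difference between the WT libraries was -0.0068, and 50.9% of genes were lower in WT 4. Ranked by that difference, the members lay between percentile 1.38 (Dlx4) and percentile 13.9 (Dlx6) of the genes tested. WT 4 was the lowest of 6 libraries for 19.2% of all genes. WT 4 also had the lowest mesenchyme marker sum and the highest erythroid sum given above. Of the mesenchyme markers, Prrx1, Twist1, Twist2 and Pdgfra were lower in WT 4 than in WT 3. Prrx2 (79.4 against 57.6 CPM) and Snai1 (70.2 against 42.7 CPM) were higher. Hand2 cKO 2 had the next highest erythroid sum, 7988 CPM, and the highest Dlx total, 583 CPM. The part of these sums in the Dlx levels was not tested. At the other end, Hand2 cKO 2 was highest for 4 members (Dlx2, Dlx4, Dlx5 and Dlx6) and Gli2/3 cKO for 2 (Dlx1 and Dlx3), where 32.1% and 18.7% of all genes had their highest value.

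Hand2 cKO was compared with WT to ask whether the Dlx code, which lies upstream of Hand2 in the arch, was altered when Hand2 was lost from the crest. No member and no pair was called. Mean levels in Hand2 cKO ran from 121% (Dlx1) to 140% (Dlx4) of WT. The log2 fold changes (± SE, here and below) were 0.28 ± 0.26 for Dlx1, 0.41 ± 0.20 for Dlx2, 0.43 ± 0.27 for Dlx3, 0.48 ± 0.33 for Dlx4, 0.45 ± 0.24 for Dlx5 and 0.41 ± 0.28 for Dlx6. All adjusted p-values lay between 0.723 and 0.756 (edgeR quasi-likelihood test, Benjamini-Hochberg over all genes tested). Of the members 0 of 6 passed an adjusted p of 0.05 with a fold above 1.5, against 0.0114% of all genes tested. At an unadjusted p under 0.05 there were 0 as well, against 2.44% of genes higher and 4.02% lower. By DESeq2 0 members were called, against 1.04% of genes.

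Summed by pair, the log2 fold changes were close to each other. They were 0.33 ± 0.23 for Dlx1/2 with a 95% interval from -0.23 to 0.90, 0.43 ± 0.28 for Dlx3/4 (-0.24 to 1.11) and 0.44 ± 0.25 for Dlx5/6 (-0.16 to 1.04), each at an adjusted p of 0.723. Each interval included 0 and reached 0.90 or more, so neither equal levels nor a sizeable increase could be set aside at this number of libraries. The Hand2 cKO libraries lay above both WT libraries for 2 members, Dlx2 and Dlx5, where 15.3% of all genes tested were separated in that direction, and for 0 of 3 pairs. No member was separated in the lower direction, against 15.7% of genes.

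The size of these values, and for Dlx1 the sign, rested on WT 4. Without WT 4 the log2 fold change of Dlx1 was -0.086, and it was 0.19 for Dlx2, 0.052 for Dlx3, 0.060 for Dlx4, 0.16 for Dlx5 and 0.24 for Dlx6. The pairs then stood at 0.025 for Dlx1/2, 0.053 for Dlx3/4 and 0.19 for Dlx5/6. Without WT 3 the members instead stood between 0.60 (Dlx6) and 1.10 (Dlx4), with 0 called. Set against WT 3 alone, the Hand2 cKO mean was 0.942-fold for Dlx1, 1.14-fold for Dlx2, 1.04-fold for Dlx3 and Dlx4, 1.12-fold for Dlx5 and 1.18-fold for Dlx6. For Dlx6 the value also rested on Hand2 cKO 2, and it was 0.10 without that library. Dlx5 and Dlx6 are the shortest members by the length used here (percentile 20.1 and 24.2 of genes tested). With the length trend of each library removed, Dlx5 stood at 0.28 and Dlx6 at 0.24.

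**Figure D2:**
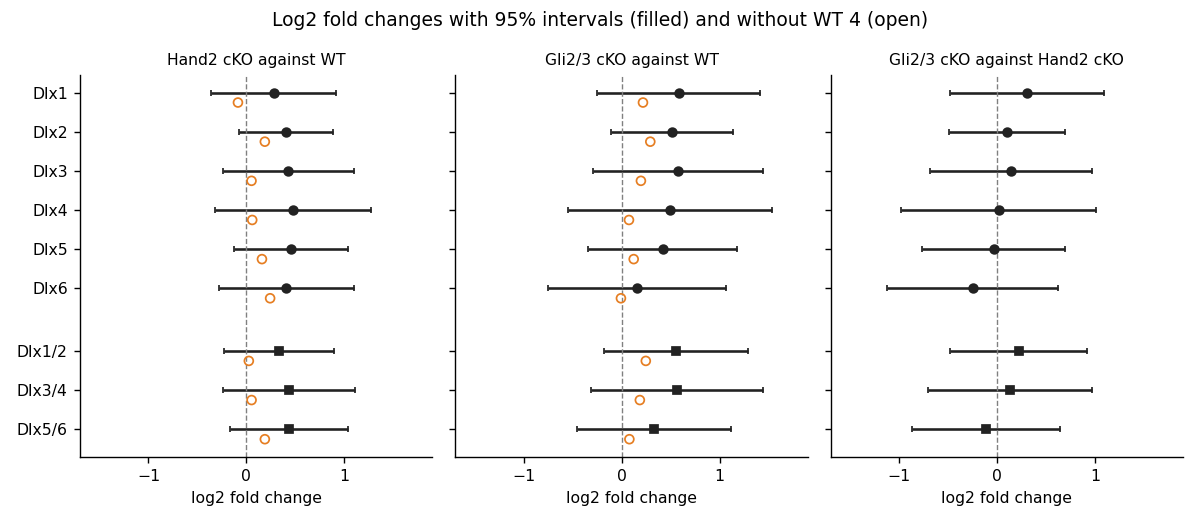
Log2 fold changes of the 6 members (circles) and 3 summed pairs (squares) with 95% intervals in each comparison, and the same values without WT 4 (open circles). Every interval includes 0, and in Hand2 cKO against WT the open circles lie between -0.086 and 0.24.

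Gli2/3 cKO was compared with WT to ask the same of the Gli factors. This lone library adds no residual degree of freedom and was assumed to vary like the others, so the values have no replicate check. Its levels were 112% (Dlx6) to 150% (Dlx1) of the WT mean. The log2 fold changes were 0.58 ± 0.34 for Dlx1, 0.51 ± 0.26 for Dlx2, 0.57 ± 0.36 for Dlx3, 0.49 ± 0.43 for Dlx4, 0.42 ± 0.31 for Dlx5 and 0.16 ± 0.37 for Dlx6. Here 0 of 6 members were called by edgeR (all adjusted p = 1, against 0.0114% of genes called), 0 by DESeq2 (0.75% of genes) and 0 at an unadjusted p under 0.05, where 1.63% of genes were higher and 2.96% lower. The pairs stood at 0.55 ± 0.30 (Dlx1/2, interval -0.18 to 1.29), 0.57 ± 0.36 (Dlx3/4, -0.31 to 1.44) and 0.33 ± 0.32 (Dlx5/6, -0.46 to 1.12).

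The Gli2/3 cKO library was above both WT libraries for 5 of 6 members, all but Dlx6, and for 3 of 3 pairs, where 36.5% of all genes were above both WT libraries. It was below both for 0 members, against 33.7% of genes. Against WT 3 alone it was 1.16-fold for Dlx1, 1.22-fold for Dlx2, 1.15-fold for Dlx3, 1.05-fold for Dlx4, 1.09-fold for Dlx5 and 0.995-fold for Dlx6. In the fit without WT 4 the largest value was 0.29 (Dlx2), and Dlx6 turned to -0.0085. Both comparisons with WT share the same WT libraries, so their like signs are not independent of each other.

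Between the mutants, which share no library, Gli2/3 cKO against Hand2 cKO gave 0.30 ± 0.32 for Dlx1, 0.10 ± 0.24 for Dlx2, 0.14 ± 0.34 for Dlx3, 0.015 ± 0.41 for Dlx4, -0.037 ± 0.30 for Dlx5 and -0.25 ± 0.36 for Dlx6. By edgeR 0 of 6 members were called (0.0343% of genes), 0 by DESeq2 (0.824% of genes) and 0 at an unadjusted p under 0.05 (2.86% of genes higher and 2.63% lower). The adjusted p-values of edgeR ran from 0.906 to 0.997. The Dlx1/2 pair stood at 0.22 ± 0.29, Dlx3/4 at 0.13 ± 0.34 and Dlx5/6 at -0.11 ± 0.31. The Gli2/3 cKO library was above all 3 Hand2 cKO libraries for Dlx1 and Dlx3, and for 2 of 3 pairs, where 28.7% of genes were. It was below all 3 for 0 members, against 27.2% of genes. Without Hand2 cKO 2, the values of Dlx5 and Dlx6 turned to 0.073 and 0.042.

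The balance between the pairs was then compared within each library, where scaling by library size cancels. A trend with transcript length that differs between libraries does not cancel. Of all Dlx CPM, which totalled 307 (WT 4) to 583 (Hand2 cKO 2), the Dlx1/2 pair took 45.7% and 44.8% in WT 3 and WT 4. In Hand2 cKO 1, 2 and 3 it took 44.4%, 40.7% and 46.1%, and in Gli2/3 cKO 47.99%. Dlx5/6 took 37.7% and 41.0% in WT, 38.0%, 44.1% and 38.0% in Hand2 cKO and 35.2% in Gli2/3 cKO. Dlx3/4 took between 14.2% and 17.6% in all libraries. The low total in WT 4 was thus spread over all 3 pairs, with its Dlx3/4 share the lowest of the 6 libraries.

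The log2 ratio of Dlx5/6 to Dlx1/2 was -0.20 ± 0.10 in WT (SD, n = 2), -0.13 ± 0.21 in Hand2 cKO (SD, n = 3) and -0.45 in Gli2/3 cKO, on the scale of counts. Per length, in TPM, the ratio was above 0 in all 6 libraries, at 0.63 ± 0.12 in WT (SD, n = 2), 0.68 ± 0.24 in Hand2 cKO (SD, n = 3) and 0.39 in Gli2/3 cKO. Dlx5/6 thus exceeded Dlx1/2 per length in every library, and by counts in Hand2 cKO 2 alone. Hand2 cKO 2 is the library with the slope of -0.22 per doubling of length. By the length used here, Dlx5 and Dlx6 (1416 and 1601 bases) are shorter than Dlx1 and Dlx2 (3061 and 2425 bases). The part of the slope in the ratio of that library was not tested. On counts, the difference of 0.073 between Hand2 cKO and WT was within the spread between libraries (two-sided exact permutation test, p = 0.9, adjusted p = 0.9 over 6 ratios). With 2 libraries against 3, the smallest p this test allows is 0.1. The other 5 ratios also overlapped between WT and Hand2 cKO. Their differences were 0.13 for Dlx3/4 to Dlx1/2, 0.053 for Dlx3/4 to Dlx5/6, -0.082 for Dlx1 to Dlx2, -0.085 for Dlx3 to Dlx4 and 0.11 for Dlx5 to Dlx6. For Dlx5/6 to Dlx1/2, the difference of 0.073 turned to -0.049 without Hand2 cKO 2 and to -0.00016 without WT 3.

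**Figure D3:**
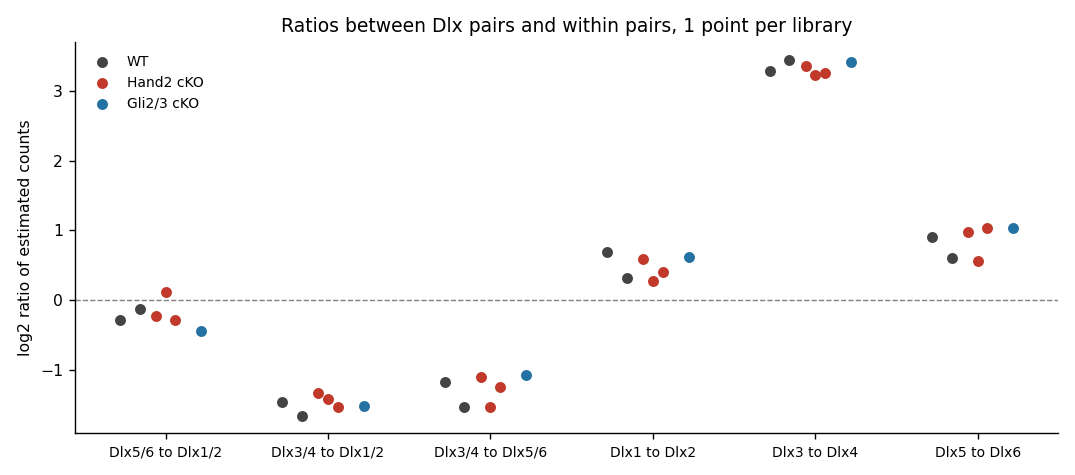
Log2 ratio of estimated counts between and within bigene pairs, with 1 point per library. WT and Hand2 cKO points overlap for all 6 ratios, and Gli2/3 cKO has the lowest Dlx5/6 to Dlx1/2 ratio, at -0.45.

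The files list 18 transcripts of the 6 genes, and the transcripts that took the counts differed between members. For Dlx1, 70.3% to 76.2% of the counts were assigned to ENSMUST00000145088.1, a transcript of 3385 bases annotated as a retained intron, and between 10.5% (Hand2 cKO 2) and 17.4% (Hand2 cKO 3) to protein-coding transcripts. Per length, protein-coding Dlx1 was 20.8 and 14.6 TPM in WT, 19.1, 6.58 and 18.7 TPM in Hand2 cKO and 22.4 TPM in Gli2/3 cKO. On this measure Dlx1 was below Dlx2, whose protein-coding level was 47.7 to 83.1 TPM, in every library. The place of Dlx1 in the order per length thus differed between these measures, which rest on how the authors' program divided reads between overlapping transcripts. With only protein-coding transcripts summed, the log2 fold change of Dlx1 was 0.34 in Hand2 cKO and 0.76 in Gli2/3 cKO, with 0 of 6 members called in any comparison.

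Dlx4 was divided between a protein-coding transcript (53.5% to 65.7%) and a processed transcript (34.3% to 46.5%), the former share being highest in WT 4. Dlx2 and Dlx5 counts were at least 96.6% and 92.7% protein-coding, and Dlx3 has a single transcript. Dlx6 counts were at least 94.4% protein-coding, but Hand2 cKO 2 divided them in another way. The coding transcript ENSMUST00000171311.7, of 1071 bases, took 0.177% of Dlx6 there and 5.63% to 18.2% in the other libraries. ENSMUST00000031768.7, of only 605 bases, took 33.6% there and 23.1% to 25.9% elsewhere. Hand2 cKO 2 is also the library with the steep slope on transcript length, and the part of that slope in its Dlx6 level was not tested.

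**Figure D4:**
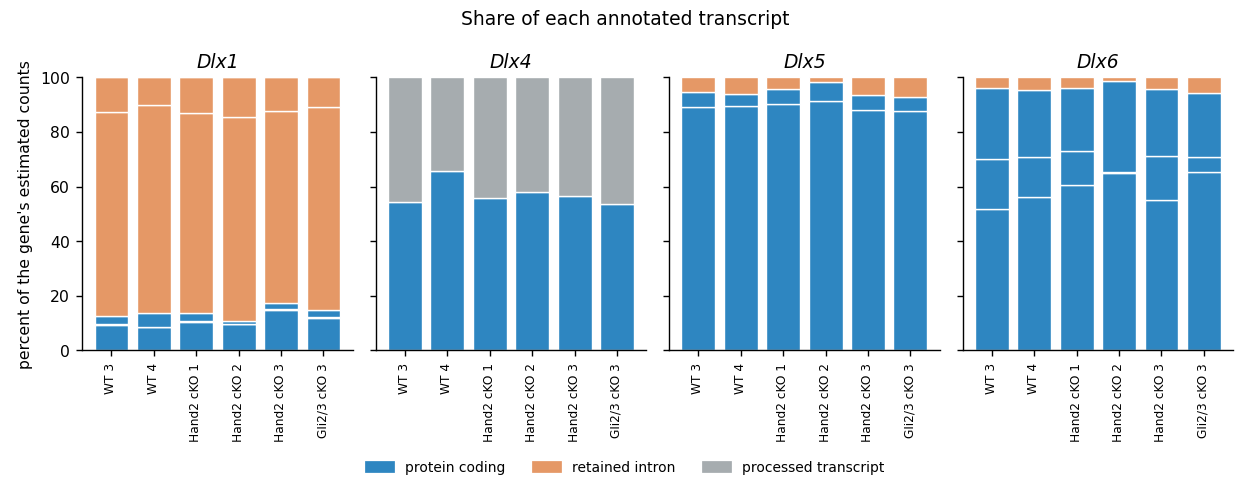
Share (percent) of the estimated counts of Dlx1, Dlx4, Dlx5 and Dlx6 taken by each annotated transcript in each library, coloured by transcript type with white lines between transcripts. Retained-intron transcripts take most of Dlx1 in every library, and the division of Dlx6 in Hand2 cKO 2 differs from the rest.

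The bigene loci also hold genes on the opposite strand, Dlx1as, Dlx4os, Dlx6os1 and Dlx6os2, for which the files used list 0 transcripts. Their exons overlapped 335 exonic bases of Dlx1 (6.21%), 79 of Dlx4 (2.42%) and, for Dlx6os2, 104 of Dlx6 (4.38%), while Dlx6os1 overlapped 0. The strand setting of the counting is not stated, so reads from these stretches cannot be assigned to a strand.

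Genes around the Dlx code were described by lists. These lists were chosen with earlier results of these data known, so the shares over all genes given beside them are no independent test of a list. Of 12 inputs to the code (endothelin signalling with Bmp4, Fgf8 and their receptors), 0 were called in any comparison. Edn1, the ligand, was low. It averaged 0.626 CPM (WT) and 0.968 CPM (Hand2 cKO) and stood at 1.65 CPM in Gli2/3 cKO. The Hand2 cKO libraries 1, 2 and 3 had 0.681, 1.45 and 0.770 CPM of Edn1, so Hand2 cKO 2 alone was near the Gli2/3 cKO library. Its difference in Gli2/3 cKO, 1.41 ± 0.59 on the log2 scale, had the lowest p of the list there (unadjusted p = 0.0533, edgeR adjusted p = 1). Ednra, its receptor, averaged 54.6 CPM (WT) and 52.98 CPM (Hand2 cKO). The lowest p in Hand2 cKO was that of Furin, a protease that processes the ligand precursor (-0.40 ± 0.16, unadjusted p = 0.0441, edgeR adjusted p = 0.723). The median of this list was -0.11 in Hand2 cKO and -0.084 in Gli2/3 cKO, with that of all genes at -0.00016 and 0.0011.

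Most of 10 lower-jaw genes known to lie downstream of Dlx5 and Dlx6 showed larger differences in Hand2 cKO than the Dlx genes themselves. Of these 10 genes, edgeR called 1 lower in Hand2 cKO, DESeq2 called 7 lower, and 8 were lower at an unadjusted p under 0.05, with a median of -2.29. Hand2, the gene deleted in these embryos, is among the 10, the 7 and the 8, and enters this median. The 2 genes of the list outside the 8, Gbx2 (1.38 ± 0.63) and Bmp7 (0.35 ± 0.17), were higher in Hand2 cKO, neither at an unadjusted p under 0.05. Of all genes tested, 0.0114% were called by edgeR, 1.04% were called by DESeq2 in either direction, and 4.02% were lower at an unadjusted p under 0.05. These shares do not test the list for enrichment, because it was chosen with earlier results of these data known and holds Hand2. It also holds Plagl1, which the paper picked as a target from its RNA-seq and binding data. The call by edgeR was lost without WT 4. Among the other genes of the list were Hand1 (-4.11 ± 0.32), the paralog of Hand2, Hand2 itself (-3.40 ± 0.30), whose difference is set by the genotype, and Gsc (-2.90 ± 0.28), a homeobox gene of the arch, at edgeR adjusted p-values of 0.0580, 0.0580 and 0.0784. In the same libraries, Dlx5 and Dlx6, their known activators, had mean levels of 137% and 133% of WT and were not called. Without WT 4 their log2 differences were 0.16 and 0.24, and without Hand2 cKO 2 that of Dlx6 was 0.10. In Gli2/3 cKO 0 of the 10 were called by edgeR or DESeq2, with a median of -0.41 and 3 lower at an unadjusted p under 0.05, namely Plagl1 (-1.35 ± 0.39), Gsc (-1.37 ± 0.40) and Hand1 (-1.34 ± 0.43), against 2.96% of all genes. Between the mutants edgeR called 1 of the 10 higher in Gli2/3 cKO, and DESeq2 called 4, against 0.0343% and 0.824% of all genes in either direction. Hand2 is among these 4.

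Of 7 upper-jaw and proximal genes, which Dlx5 and Dlx6 are known to keep low in the lower jaw or which mark the proximal arch, edgeR called 0 in any comparison. In Hand2 cKO the median was 0.56, an unadjusted p under 0.05 with a higher level was found for 4, and 2 of them passed by DESeq2, with Foxl2 (2.12 ± 0.40) among these. Of all genes, 2.44% were higher at an unadjusted p under 0.05, and 1.04% were called by DESeq2 in either direction. Foxl2 was low in WT, at 1.64 CPM in WT 3 and 0.796 CPM in WT 4. The 4 also held Irx5 (0.56 ± 0.21) and Pou3f3 (1.22 ± 0.46), which DESeq2 did not call. In Gli2/3 cKO the median was 0.29. DESeq2 called 1 of the 7 there, Pou3f3, against 0.75% of all genes. Pou3f3, a transcription factor gene of the upper jaw part, was at 12.2 CPM in that library and 3.39 and 1.06 CPM in WT (2.42 ± 0.57, DESeq2 adjusted p = 0.0155, edgeR adjusted p = 0.683). Irx5, at -0.85 ± 0.29, was not called by either tool (DESeq2 adjusted p = 0.538). Of 8 other homeobox genes of arch mesenchyme, 0 were called by edgeR in any comparison, and the medians were 0.20 in Hand2 cKO and 0.15 in Gli2/3 cKO. DESeq2 called 1 of them lower in Gli2/3 cKO, Alx1 (-1.82 ± 0.29), against 0.75% of all genes called there in either direction. The medians of the 6 Dlx genes were 0.42 and 0.50, with the dependence on WT 4 given above.

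**Figure D5:**
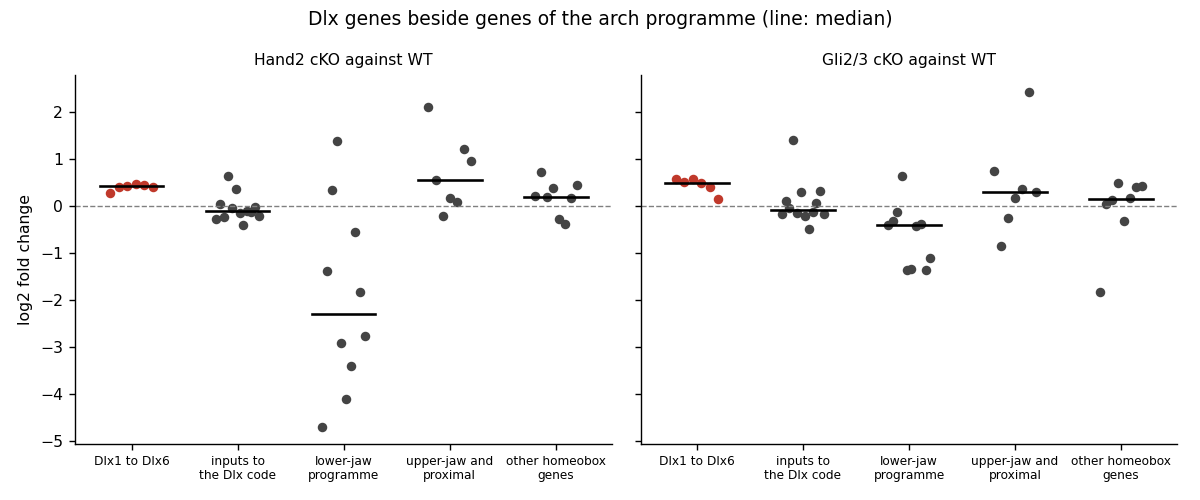
Log2 fold changes of the 6 Dlx genes and of 4 lists of arch genes in Hand2 cKO and Gli2/3 cKO against WT, with 1 point per gene and a line at the median. In Hand2 cKO the lower-jaw list, which includes Hand2 itself, has its median at -2.29, while the Dlx genes lie between 0.28 and 0.48.

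The genes with levels most like those of a pair over the 6 libraries were listed as a description, by Pearson correlation of log2 CPM among 9671 genes. For Dlx1/2 they were Gatad2a (r = 0.994), Pop1 (0.993) and Dhx40 (0.991), and for Dlx3/4 Rbm12 (0.993), Zfp944 (0.992) and Tmem41b (0.991). For Dlx5/6 they were Pttg1 (0.996), Arf4 (0.993) and Nxpe3 (0.986). Between 111 and 313 genes passed 0.9 for a pair. All points share the libraries, WT 4 is lowest for each of these 9 genes as well, and Hand2 cKO 2 is highest for the 3 that go with Dlx5/6.

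Upstream sequence was examined for Dlx2, for which RefSeq (GRCm38.p6) gave the 250 bases before the start, chr2:71546755-71547004 on the minus strand. It is shown because Hand2 and other basic helix-loop-helix factors bind E-boxes, written CANNTG, and capitals mark the E-boxes in it.
Dlx2 upstream: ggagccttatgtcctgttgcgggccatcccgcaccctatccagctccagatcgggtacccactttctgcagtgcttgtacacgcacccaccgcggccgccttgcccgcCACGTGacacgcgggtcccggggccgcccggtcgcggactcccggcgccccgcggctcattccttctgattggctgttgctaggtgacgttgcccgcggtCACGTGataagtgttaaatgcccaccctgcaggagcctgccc

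The window held 2 E-boxes, 142 and 42 bases before the start, and both read CACGTG, which is its own reverse complement. The paper separates Hand-specific E-box motifs from the general form CANNTG, and these were not searched for here. Any E-box was present in 66.2% of 32851 windows of the same length, and CACGTG in 6.02%. The canonical Gli motif TGGGTGGTC, searched on both strands, was found 0 times here and in 0.225% of windows. CCTCC, the core letters of a divergent Gli motif of lower affinity, was also found 0 times on either strand, and in 66.9% of windows. An absent match says only that these letters are not in the window. A match describes the letters and not a bound site, and the RNA libraries carry no measure of binding.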

How the data were processed

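Bulk RNA-seq libraries of E10.5 MNPs were grouped by the genotype in their labels, and 6 of the 10 samples were used. The authors mapped paired-end reads to mm10 and determined abundance in Strand NGS. The program version, annotation and strand setting were not given in the sources used here. The sequencer differs between labels and methods. The deposited files hold estimated counts per transcript, made by the authors from the mapped reads and not scaled. They were summed per gene symbol and rounded here.

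The members and lists were chosen with earlier results of these data known. All 6 libraries entered 1 quasi-likelihood fit in edgeR 4.0.16 (R 4.3.3) with TMM scaling, filterByExpr and genotype as the only term (3 residual degrees of freedom). Calls needed an adjusted p (Benjamini-Hochberg over all genes tested) under 0.05 and a fold above 1.5. Pairs were fitted as summed counts. DESeq2 1.42.0, other scalings, no filter, a length correction, coding transcripts alone and leaving out each WT and Hand2 cKO library were alternatives. Scripts were tested on simulated data. A few genes were named for their level or direction. The other named genes were the members, the targeted genes and the 3 genes most like each pair. From each list up to 4 with the smallest p were named, fewer where none was called. Some results that this rule selects are not reported here, though the list counts and medians include them. TPM used GENCODE M21 lengths.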

Additional observations from a re-analysis of the deposited data

How the results depend on the processing

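Under 12 alternatives for each comparison, 0 members and 0 pairs were called, and in Hand2 cKO and Gli2/3 cKO against WT all signs stayed positive except Dlx1 in Hand2 cKO (-0.086) and Dlx6 in Gli2/3 cKO (-0.0085), both without WT 4. Leaving out single libraries gave, in Hand2 cKO, -0.086 to 0.77 for Dlx1 and 0.025 to 0.72 for Dlx1/2, and in Gli2/3 cKO -0.0085 to 0.35 for Dlx6. Between the mutants, signs turned for Dlx4 with coding transcripts alone (-0.036), for Dlx5 with total counts (0.066) and with the length trend removed (0.13), and for Dlx5/6 with the length trend removed (0.059). Leaving out single libraries gave -0.044 to 0.076 for Dlx4, -0.100 to 0.073 for Dlx5, -0.40 to 0.042 for Dlx6 and -0.20 to 0.063 for Dlx5/6. The Dlx5/6 to Dlx1/2 difference was -0.049 to 0.15 with single libraries left out and turned to -0.00016 without WT 3 and -0.049 without Hand2 cKO 2. Total-count scaling moved the median of all genes to -0.12 in Hand2 cKO against WT.

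The number of genes called over all genes was unstable. In Hand2 cKO against WT it was 2, and 182 by DESeq2, 1 with upper-quartile scaling, 1 with total counts, 45 with no filter, 66 with the length trend removed, 1 with coding transcripts alone and 1 to 39 with single libraries left out. In Gli2/3 cKO against WT it was 2, and 131 by DESeq2, 21 with no filter, 57 in a fit of those groups alone, 19 with the length trend removed, 0 with coding transcripts alone and 0 to 14 with single libraries left out. Between the mutants it was 6, and 144 by DESeq2, 39 with no filter, 20 in a fit of those groups alone, 48 with the length trend removed, 2 with coding transcripts alone and 2 to 23 with single libraries left out. The cause was not tested. No paired analysis was possible because the WT and Hand2 cKO libraries used share only replicate number 3. The labels also do not say whether equal replicate numbers mark a shared litter, a shared batch or any other match between libraries.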
